A study of Mus musculus with 6 samples.

Results

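The unfolded protein response and the folding machinery of the endoplasmic reticulum (ER) were described here as 48 genes in the mouse lacrimal gland, which makes the aqueous layer of tears. The genes were listed by name for their roles, with earlier results of these data known, and no measured value enters the rule: 7 sensors and membrane-bound transcription factors, 6 stress transcription factors and their targets, 12 chaperones and co-chaperones, 11 disulfide isomerases and oxidases, and 12 genes of ER-associated degradation. All 48 were found among the 50686 gene identifiers of the count table, and 47 were among the 13178 genes with enough counts to be tested. The remaining gene, Ern2, the IRE1 paralogue of mucus-secreting epithelia, was close to absent, the wild-type libraries holding 1, 3 and 1 counts of it and the mutant libraries 1, 3 and 0.

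The study sequenced total RNA from whole glands of adult mice, 13 weeks old, in 2 groups of 3. One group was wild-type (titled Blacky in the labels) and the other was Eda-/- (titled Tabby). Ectodysplasin A, the product of Eda, is a TNF-type ligand that skin appendages such as hair, teeth and glands need to form, and all mice carried the strain label C57BL/6. The 3 samples per group are biological replicates according to the series' design text. The labels say nothing on the allele of Eda beyond the genotype or on pooling of animals or glands. Eda itself had 41, 48 and 42 counts in the wild-type group; the mutant group had 2, 0 and 0.

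Secretory cells fold large amounts of protein in the ER, where chaperones hold unfolded chains, isomerases form disulfide bonds, and degradation factors return failed proteins to the cytosol. When unfolded protein builds up, the sensors IRE1 (Ern1), PERK (Eif2ak3) and ATF6 start the unfolded protein response. IRE1 splices the Xbp1 mRNA, ATF6 is cut in the Golgi to release a transcription factor, and PERK slows translation and favours the synthesis of ATF4. XBP1 and ATF6 drive genes of folding and degradation, while ATF4 drives Ddit3 (CHOP), Trib3, Chac1 and Ppp1r15a. Lacrimal acinar cells are professional secretory cells with an extensive ER.

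Libraries held 11894395 to 15700899 counts. Values below are CPM, counts scaled to the size of the library, after TMM scaling, which assumes that most genes do not differ, unless stated otherwise. Genes were tested with edgeR's quasi-likelihood test, and a gene passed at an adjusted p under 0.05. Across all tested genes 819 were higher and 909 lower in Eda-/- glands. The split depended on the scaling: with libraries scaled by their totals it was 246 higher and 4365 lower, the median log2 difference of all genes moving to -0.28, and with a trend on GC content and length removed it was 1444 higher and 848 lower. In a whole gland, fewer cells of a type and less RNA per cell cannot be told apart.

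Of the 47 tested genes of the unfolded protein response and ER folding, 18 rose in Eda-/- glands, 0 fell and 29 did not pass; over all tested genes 6.21% were called higher and 6.9% lower. The median log2 difference of the 47 genes was 0.18, with a range from -0.64 to 0.76, beside a median of 0.00 over all tested genes. The differences were modest: the largest fold among the genes that passed was 1.70, for the reductase Dnajc10, and the smallest 1.18, for the cyclophilin Ppib. The lowest mutant library lay above the highest wild-type library for 28 of the 47 genes (15.9% of all tested genes), and the reverse held for 1 gene, the lectin Os9 (16.2% of all tested genes). Since ER folding genes are abundant, the 6014 genes with a mean of at least 10 CPM are a closer background: 9.66% of them were called higher, and 43 of the folding and stress genes, among them all 18 that rose, belonged to this class.

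The size of the count rested on single libraries and on the scaling. Without mutant 3 the number that rose was 7, without wild-type 1 it was 8, without wild-type 3 it was 12, without wild-type 2 it was 13, and without mutant 1 or mutant 2 it was 15 each. Over all tested genes the number higher, 819 of 13178 with all libraries, was 563 of 13618 without mutant 3 and 594 of 13487 without wild-type 1. It was 621 of 13443 without wild-type 3 and 561 of 13478 without wild-type 2. Without mutant 1 it was 606 of 13644, and without mutant 2 it was 677 of 13699. Creb3l2, Hyou1, Sdf2l1, Dnajc10, Creld2, Ero1l and Selenos passed whichever library was left out. With libraries scaled by their totals, 2 of the 47 genes rose (Dnajc10 and Creld2) and 4 fell (Canx, Txndc11, Herpud1 and Os9), beside 1.87% and 33.1% of all tested genes, and the median difference was -0.10. With a trend on GC content and length removed, 25 rose and 0 fell, beside 11.0% and 6.43% of all tested genes. Of the 41 genes above 0 with TMM, 27 lay below 0 with library totals. Measured from the median of all genes, the median of the 47 lay 0.178 higher with TMM and 0.176 higher with library totals. Calls were also compared for 59 genes, these 47 and those named by rule from the other pathway lists. All 59 stayed the same with the 20 most abundant genes removed, and 58 with DESeq2 size factors or limma-voom. With DESeq2 51 stayed the same, with upper quartile scaling 51, and with library totals 32.

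**Figure D1:**
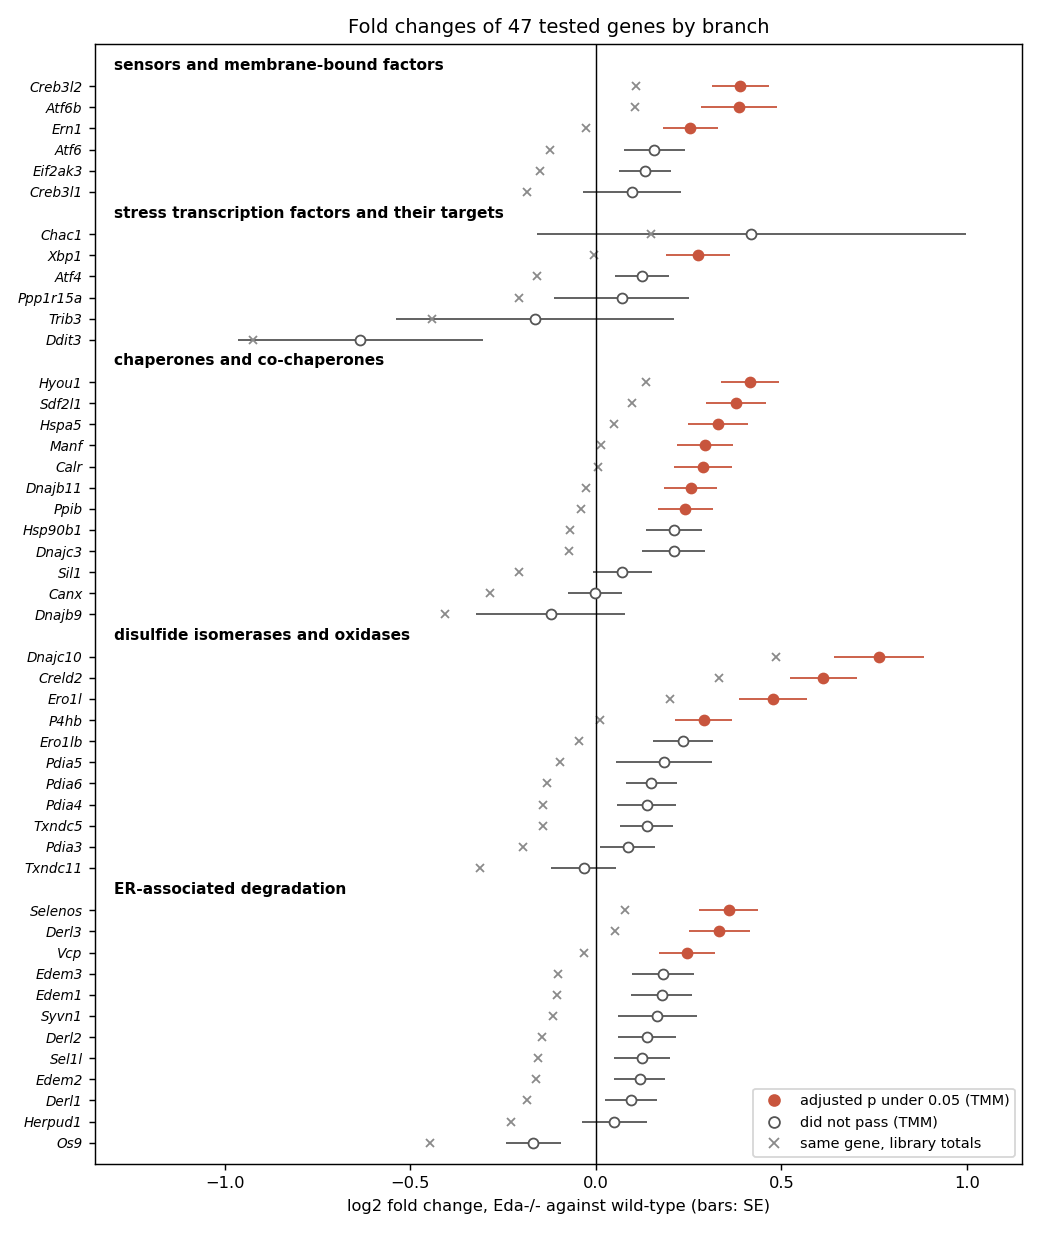
Log2 difference of Eda-/- over wild-type (x axis) for the 47 tested genes, grouped by branch, with TMM scaling and standard errors as bars; filled points passed, open points did not, and crosses give the same gene with library totals as the scaling. Chaperones, isomerases and degradation genes lie mostly to the right of 0, with 18 genes past the threshold, while Ddit3 at -0.64 lies farthest to the left; with library totals as the scaling 2 genes rose and 4 fell.

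A group of the 48 genes shares a promoter motif. The genes were listed for roles in the response that acts through it, so its share among them is not independent of the choice. The ER stress element (ERSE), the site through which ATF6 and XBP1 act together with NF-Y, is written CCAAT, then 9 bases of any kind, then CCACG. RefSeq promoters (GRCm38.p6, 250 bases before to 50 after the start) were matched for 41 of the 48 genes. The 7 not matched were Ern2, Atf6, Creb3l1, Hyou1, Manf, Sil1 and Derl1, of which Hyou1 and Manf rose. Both strands were searched. The motif was in the promoters of 10 of the 41 (24.4%) and in 37 of 27025 genes with a promoter in the table (0.137%). The sequences printed are from 7 of the 10 genes, 4 that rose and then 3 that did not pass, to show the shared letters. Each runs 5′ to 3′ on the gene's strand, the motif is in capitals, and CGTGG first means that the motif lies on the opposite strand.

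Hspa5, chr2:34772020-34772048, plus strand: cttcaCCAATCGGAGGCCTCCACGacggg

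Calr, chr8:84847059-84847109, minus strand: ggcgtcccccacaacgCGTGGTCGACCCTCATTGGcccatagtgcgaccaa

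Creld2, chr15:88819504-88819554, plus strand: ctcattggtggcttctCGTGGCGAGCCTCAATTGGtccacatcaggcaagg

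Derl3, chr10:75893226-75893276, plus strand: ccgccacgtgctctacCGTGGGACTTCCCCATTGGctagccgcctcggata

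Hsp90b1, first copy, chr10:86705622-86705672, minus strand: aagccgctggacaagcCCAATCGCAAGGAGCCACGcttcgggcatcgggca

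Hsp90b1, second copy, chr10:86705517-86705567, minus strand: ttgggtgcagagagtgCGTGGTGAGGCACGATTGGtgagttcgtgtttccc

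Canx, chr11:50325784-50325834, minus strand: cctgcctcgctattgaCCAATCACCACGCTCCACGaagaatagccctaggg

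Syvn1, chr19:6046516-6046566, plus strand: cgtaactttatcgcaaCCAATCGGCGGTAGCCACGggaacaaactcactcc

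Hspa5, Calr, Creld2 and Derl3 rose, whereas Hsp90b1, Canx and Syvn1 did not pass, and neither did Dnajc3, Ero1lb and Pdia6, whose promoters also hold the motif. The 10 genes with the motif had a median log2 difference of 0.222, and the 31 matched genes without it had a median of 0.177. The share that rose was thus 4 of 10 with the motif and 12 of 31 without it, and the difference was not tested. The shorter ERSE-II, ATTGG and CCACG with 1 base of any kind between them, was found in 2 of the 41 genes (4.88%) and 12 of the 27025 genes (0.0444%). The 2 were Dnajb11, which rose, and Herpud1, which did not pass, and they are counted among the 31 genes without ERSE. The unfolded protein response element TGACGTGG was found in Vcp, which rose, and in Txndc5 and Txndc11, which did not pass (7.32% of the 41, beside 0.714% of all genes with a promoter). No promoter held ERSE together with ERSE-II or TGACGTGG. A match is a description of the letters in this window.

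The PERK branch has its own motif, the C/EBP-ATF response element that ATF4 binds with a C/EBP partner, searched as TGATGNAA on both strands. It was in 4 of the 41 promoters (9.76%) and in 4.51% of all genes with one. The carriers were Chac1, Trib3, Herpud1 and Txndc5, and none of the 4 passed. Chac1 is printed because its level varied most among the mutant libraries, and its motif lies on the opposite strand.

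Chac1, chr2:119351033-119351072, plus strand: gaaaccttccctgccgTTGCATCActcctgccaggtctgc

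Among the sensors and membrane-bound factors, 3 of the 6 tested genes rose and 0 fell, beside 6.21% and 6.9% of all tested genes. Their median log2 difference was 0.21. With library totals as the scaling none of the 6 rose, beside 1.87% of all tested genes. Creb3l2, a relative of ATF6 that is cut in the Golgi and drives secretory pathway genes, was at 52.3, 54.6 and 50.5 CPM in the wild-type glands and 63.6, 69.7 and 72.9 CPM in the mutant glands. All 3 mutant libraries lay above all 3 wild-type libraries (log2 difference 0.39 ± 0.08 SE, n = 3 per group, edgeR adjusted p = 0.00353). Atf6b, a paralogue of ATF6 with weaker activity, rose from 15.96, 17.3 and 18.4 CPM to 24.6, 19.6 and 23.2 CPM (0.39 ± 0.10, edgeR adjusted p = 0.0216). The 2 groups did not overlap, but the gap between wild-type 3 and mutant 2 was small beside the spread. Atf6b did not pass when wild-type 1, wild-type 2, mutant 1 or mutant 3 was left out (edgeR adjusted p up to 0.0782), nor with DESeq2 (adjusted p = 0.0708).

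Atf6b lies on chromosome 17 at 34647146 to 34655074 (GRCm38) in a region where many genes differed: of 87 tested genes within 1000000 bases, 29 passed, 17 of them by more than 2-fold. The part of these neighbours in its difference was not tested. Creb3l2, on chromosome 6, had 2 passing genes among 6 tested within the same distance, and these 2 were higher by more than 2-fold. Dnajc10 had 1 among 7, which was lower by more than 2-fold. Over all tested genes 13.1% passed in either direction. The part of the neighbours in the differences of Creb3l2 and Dnajc10 was not tested either.

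Ern1, which encodes the kinase and endonuclease IRE1, was at 146, 149 and 139 CPM in wild-type glands and 161, 172 and 185 CPM in mutant glands. Every mutant value lay above every wild-type value, and the difference passed (0.25 ± 0.07, edgeR adjusted p = 0.0342). It passed without mutant 1, but not without any one of the other 5 libraries (edgeR adjusted p up to 0.15), and its log2 difference was -0.03 with library totals. Eif2ak3, the PERK kinase, was at 86.9, 91.4 and 86.8 CPM against 92.1, 101 and 97.0 CPM, groups that did not overlap yet did not pass (0.13 ± 0.07, edgeR adjusted p = 0.242). Atf6 itself (0.16, edgeR adjusted p = 0.231) and Creb3l1 (0.10, edgeR adjusted p = 0.691), which drives collagen secretion, overlapped between groups.

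The stress transcription factors and their targets gave 1 gene that rose among 6, Xbp1, beside 6.21% of all tested genes. Their median log2 difference was 0.10. Xbp1, whose product drives ER expansion in secretory cells, was at 340, 314 and 352 CPM in wild-type glands and 448, 368 and 402 CPM in mutant glands. The lowest mutant library, mutant 2, lay just above wild-type 3, and the difference was near the threshold (0.28 ± 0.09, edgeR adjusted p = 0.0462). It passed without wild-type 3 or mutant 2, but lost its call when wild-type 1, wild-type 2, mutant 1 or mutant 3 was left out (edgeR adjusted p up to 0.161). With library totals its log2 difference was -0.0044. Counts per gene do not separate the spliced form of the Xbp1 mRNA from the unspliced form.

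Atf4 was at 91.3, 101 and 101 CPM in wild-type glands against 108, 100 and 111 CPM in mutant glands, and did not pass (0.12 ± 0.07, edgeR adjusted p = 0.297). Its targets did not pass either, and Chac1, Trib3 and Ppp1r15a spread more widely among the mutant glands than among the wild-type glands. Chac1, which breaks down glutathione, was at 21.4, 25.9 and 21.7 CPM in the wild-type libraries but at 50.8, 10.9 and 30.3 CPM in mutant 1, 2 and 3. The highest mutant value was 4.67 times the lowest, beside 1.21 times in wild-type, and the wild-type values lay inside the mutant range (0.42 ± 0.58, edgeR adjusted p = 0.72). Trib3, a pseudokinase that restrains AKT, was at 3.99, 4.47 and 5.58 CPM in wild-type glands. In mutant 1, 2 and 3 it was at 6.90, 2.16 and 3.43 CPM, again with mutant 1 high and mutant 2 low (edgeR adjusted p = 0.828).

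Ppp1r15a, the phosphatase subunit GADD34 that restores translation, took the same order over the mutants, at 11.1, 6.19 and 7.72 CPM, beside 7.05, 8.70 and 8.09 CPM in wild-type (edgeR adjusted p = 0.848). Ddit3 was low everywhere and spread more among the wild-type glands, at 2.18, 2.23 and 4.94 CPM in wild-type glands and 1.92, 1.69 and 2.34 CPM in mutant glands. Its log2 difference of -0.64 ± 0.33 rested on wild-type 3 and did not pass (edgeR adjusted p = 0.239). All 6 genes of this branch were lowest in mutant 2 among the mutants, beside 4500 of all 13178 tested genes. Of the 6, 4 were also highest in mutant 1, an order that 2619 of all tested genes had. Of 28 other genes of the integrated stress response, 14 were lowest in mutant 2 and 9 had the full order. In the other branches 5 of 11 isomerases and oxidases, 0 of 12 chaperones, 1 of 12 degradation genes and 1 of 6 sensors had it. The order was taken from the values of the stress genes themselves, so its count among them is not independent of that choice. Since the mutant libraries are replicates, their order carries no label, and the difference between the spread of this branch and that of the others was not tested.

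**Figure D2:**
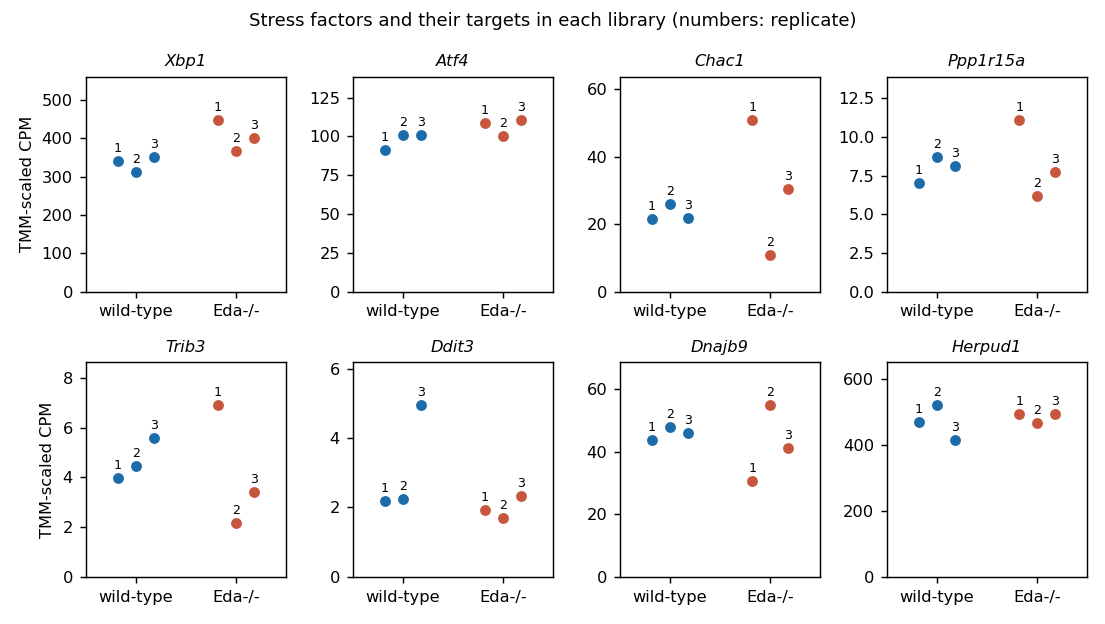
TMM-scaled CPM (y axis) of the 6 stress transcription factors and targets, and of Dnajb9 and Herpud1, in each library, 1 panel per gene; points are libraries and the digits beside them the replicate. Chac1 ranges from 10.9 to 50.8 CPM among the mutants while its wild-type libraries lie between 21.4 and 25.9 CPM.

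Among chaperones and co-chaperones 7 of 12 rose and 0 fell, beside 6.21% and 6.9% of all tested genes. Their median log2 difference was 0.25. With library totals as the scaling 0 rose and 1, Canx, fell, beside 1.87% and 33.1% of all tested genes. The number that rose was 2 without wild-type 1 and 2 without mutant 3, 4 without wild-type 3, 5 without wild-type 2, 6 without mutant 2 and 7 without mutant 1. Over all tested genes 561 to 677 were higher in these fits, beside 819 with all libraries. Hspa5 (BiP), the HSP70 of the ER that also holds the sensors inactive, is on chromosome 2 at 34771970 to 34777547 (GRCm38). It was at 609, 716 and 675 CPM in wild-type glands and 828, 829 and 857 CPM in mutant glands, a mean of 667 ± 54.3 against 838 ± 16.3 (SD, n = 3 each). The groups lay well apart, with a fold of 1.26 (log2 difference 0.33 ± 0.08, edgeR adjusted p = 0.0139). The difference did not pass without wild-type 1 or without mutant 3 (edgeR adjusted p up to 0.0641).

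Hyou1, a large HSP70 relative that exchanges the nucleotide of BiP, had the smallest spread among the mutant glands of the 18 genes, at 331, 330 and 328 CPM. Its wild-type values were 229, 268 and 244 CPM, all lower than the mutants (0.42 ± 0.08, edgeR adjusted p = 0.0024). Sdf2l1, a partner of BiP and ERdj3, rose from 62.7, 70.9 and 61.8 CPM to 86.9, 78.1 and 89.0 CPM (0.38 ± 0.08, edgeR adjusted p = 0.00592). Hyou1 and Sdf2l1 passed whichever library was left out. The exchange factor Sil1, which also acts on BiP, was at 63.6 to 71.1 CPM in wild-type glands and at 66.7 to 76.6 CPM in mutant glands and did not pass (edgeR adjusted p = 0.621).

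Manf, a small secreted protein that binds BiP, was at 74.1, 84.6 and 76.0 CPM against 96.3, 91.9 and 99.7 CPM (0.29 ± 0.07, edgeR adjusted p = 0.0171). The J-domain protein Dnajb11 (ERdj3), which delivers substrates to BiP, was at 79.4, 85.8 and 80.0 CPM against 94.7, 95.7 and 102 CPM (0.26 ± 0.07, edgeR adjusted p = 0.0271). Both genes had groups that did not overlap. Manf lost its call when wild-type 1, wild-type 3 or mutant 3 was left out (edgeR adjusted p up to 0.0694), and Dnajb11 when wild-type 1, wild-type 3, mutant 2 or mutant 3 was (edgeR adjusted p up to 0.103). The other J-domain proteins of this branch, Dnajb9 and Dnajc3, did not pass, whereas Dnajc10 (ERdj5), listed with the isomerases, did. Dnajb9 (ERdj4), a repressor of IRE1, was at 43.6, 47.9 and 46.0 CPM in wild-type and 30.6, 54.8 and 41.2 CPM in mutant glands, the widest spread of any chaperone. Dnajc3 (p58IPK), an inhibitor of PERK, was at 629 to 692 CPM in wild-type and 681 to 810 CPM in mutant glands (0.21 ± 0.08, edgeR adjusted p = 0.121).

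The lectin chaperones, which hold newly made glycoproteins, differed from each other in the calls. Calr, the soluble lectin calreticulin, was at 415, 453 and 451 CPM in wild-type and 523, 513 and 575 CPM in mutant glands, with no overlap (0.29 ± 0.08, edgeR adjusted p = 0.0246). Canx, its membrane-bound paralogue calnexin, was at 382, 367 and 375 CPM and 356, 391 and 375 CPM, with an adjusted p of 0.99 by edgeR. The difference between the 2 genes' responses was not tested. Calr lost its call when wild-type 1, wild-type 2 or mutant 3 was left out (edgeR adjusted p up to 0.118). Of 48 tested genes within 1000000 bases of it 14 passed, beside 13.1% of all tested genes.

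Hsp90b1 (GRP94), the HSP90 of the ER, was at 293, 299 and 289 CPM in wild-type glands and 323, 363 and 333 CPM in mutant glands. Its groups did not overlap, yet it did not pass (0.21 ± 0.07, edgeR adjusted p = 0.0791), whereas DESeq2 called it higher (adjusted p = 0.041). Ppib, the cyclophilin B that turns proline bonds, was at 113, 124 and 122 CPM against 144, 132 and 148 CPM (0.24 ± 0.07, edgeR adjusted p = 0.0421). It passed without mutant 2 and not without any one of the other 5 libraries (edgeR adjusted p up to 0.152). It shares 37.0% of its 31-base words with Snx22, which overlaps it on the opposite strand, so its counts are uncertain; Snx22 had 97 counts over all libraries beside 10775 for Ppib.

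**Figure D3:**
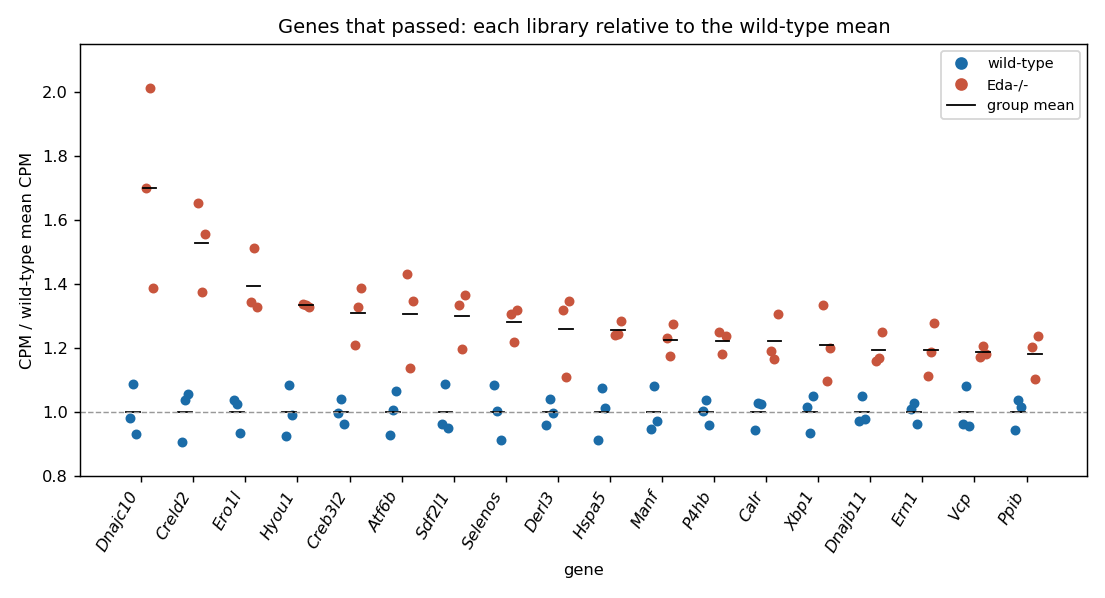
The 18 genes that rose under TMM scaling, each library divided by the wild-type mean of its gene (y axis, ratio), with points for the 6 libraries and lines for group means. The mutant points lie above the wild-type points in every gene, from Dnajc10 with a fold of 1.70 to Ppib with 1.18; with library totals as the scaling Dnajc10 and Creld2 still rose.

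Among the disulfide isomerases and oxidases, 4 of 11 rose and 0 fell, beside 6.21% and 6.9% of all tested genes. Their median log2 difference was 0.18. Under library totals Dnajc10 and Creld2 rose and Txndc11 fell, beside 1.87% and 33.1% of all tested genes. Dnajc10 (ERdj5), a reductase that opens disulfides of proteins bound for degradation, lies on chromosome 2 at 80315466 to 80354043 (GRCm38). It had the largest log2 difference of all 47 genes. Wild-type glands had 33.1, 36.7 and 31.4 CPM and mutant glands 57.4, 67.9 and 46.9 CPM, so that the lowest mutant lay well above the highest wild-type gland (0.76 ± 0.12, edgeR adjusted p = 0.00199). The spread among the mutant glands, 57.4 ± 10.5 CPM (SD, n = 3), was wider than in wild-type, 33.7 ± 2.71 CPM.

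Creld2, a chaperone-like protein with isomerase activity, lies on chromosome 15 at 88819646 to 88826683 (GRCm38). It was at 30.5, 34.9 and 35.5 CPM in wild-type glands and 55.6, 46.2 and 52.3 CPM in mutant glands (0.61 ± 0.09, edgeR adjusted p = 0.000319, the smallest of the 47). Ero1l, the oxidase that passes electrons from the isomerases to oxygen, rose from 19.8, 19.6 and 17.8 CPM to 25.7, 28.9 and 25.3 CPM (0.48 ± 0.09, edgeR adjusted p = 0.00287). Dnajc10, Creld2 and Ero1l passed whichever library was left out. Ero1lb, the paralogue of Ero1l and the more abundant one per kilobase (35.3 against 3.61 CPM per kb in wild-type), did not pass, with 246, 247 and 212 CPM against 263, 277 and 289 CPM (0.23 ± 0.08, edgeR adjusted p = 0.0704).

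P4hb, the archetypal protein disulfide isomerase and also a subunit of prolyl hydroxylase, was at 2089, 2162 and 2002 CPM in wild-type glands and 2604, 2459 and 2582 CPM in mutant glands. The groups were separated by more than their spread (0.29 ± 0.08, edgeR adjusted p = 0.0216), and the call was lost when wild-type 1, wild-type 3 or mutant 3 was left out (edgeR adjusted p up to 0.0911). The classical isomerases beside it did not pass: Pdia3, which works with calnexin and calreticulin, Pdia4, Pdia5 and Pdia6 had log2 differences between 0.09 and 0.18. Pdia4 and Pdia6 had groups that did not overlap. Txndc5 was at 348 to 359 CPM against 377 to 400 CPM, also apart (0.14, edgeR adjusted p = 0.237). Txndc11 overlapped between groups (-0.03).

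Of the 12 genes of ER-associated degradation 3 rose (Selenos, Derl3 and Vcp), 0 fell and 9 did not pass. Over all tested genes 6.21% were called higher and 6.9% lower. The median log2 difference of the 12 was 0.15. With library totals 0 rose and 2 fell (Herpud1 and Os9), beside 1.87% and 33.1% of all tested genes. With the trend on GC content and length removed 6 rose, beside 11.0% of all tested genes. With TMM the number that rose was 1 without mutant 3, 3 without wild-type 2, and 2 without any one of the other 4 libraries. These fits called 561 to 677 of all tested genes higher, beside 819 with all libraries. Selenos, a membrane selenoprotein that recruits the extraction machinery, rose from 79.4, 73.5 and 66.7 CPM to 95.5, 89.1 and 96.6 CPM and passed whichever library was left out (0.36 ± 0.08, edgeR adjusted p = 0.00736). Derl3, a derlin of secretory tissues, rose from 73.0, 79.3 and 75.9 CPM to 100.3, 84.5 and 102 CPM (0.33 ± 0.08, edgeR adjusted p = 0.0142). It did not pass without mutant 3 (edgeR adjusted p = 0.0673). The paralogues Derl1 (0.09) and Derl2 (0.14) did not pass.

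Vcp, the ATPase that pulls proteins from the membrane, was at 233, 262 and 232 CPM against 284, 292 and 286 CPM (0.25 ± 0.08, edgeR adjusted p = 0.0426). It passed without wild-type 2 and not without any one of the other 5 libraries (edgeR adjusted p up to 0.132). It shares 46.3% of its 31-base words with the copy Vcp-rs, which had 217 counts over all libraries beside 21851 for Vcp, and its level is uncertain to that extent. The core of the HRD1 complex did not pass: Syvn1, the ubiquitin ligase, was at 19.9 to 26.1 CPM in wild-type and 23.6 to 27.8 CPM in mutant glands, and Sel1l, its adaptor, at 455 to 508 CPM and 522 to 530 CPM. Sel1l was apart between groups (0.12, edgeR adjusted p = 0.311).

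Herpud1, a scaffold of the same complex, overlapped between groups (0.05, edgeR adjusted p = 0.766). The mannosidases Edem1, Edem2 and Edem3, which trim glycans to mark proteins for degradation, had log2 differences of 0.18, 0.12 and 0.18 and did not pass. Os9, a lectin that reads those trimmed glycans, was the one gene lower in every mutant library, at 349, 347 and 328 CPM in wild-type glands and 318, 298 and 295 CPM in mutant glands. It did not pass with TMM (-0.17 ± 0.07, edgeR adjusted p = 0.153).

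Levels per kilobase of exon show which of these genes the gland carries most RNA of. In wild-type glands P4hb was first at 728 ± 28.0 CPM per kb, followed by Herpud1 at 200 ± 22.5, Hspa5 at 158 ± 12.8 and Calr at 153 ± 7.45. Herpud1 and Hspa5 lay apart in every wild-type library, whereas Hspa5 and Calr did not differ beyond their spread. Edem3 (130), Os9 (130) and Dnajc3 (128) came next, indistinguishable within their spread. Trib3 (2.20) and Ddit3 (1.82) were at the other end, with Ern2 at 0.034. Levels per kb count exon length only and do not account for isoforms.

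**Figure D4:**
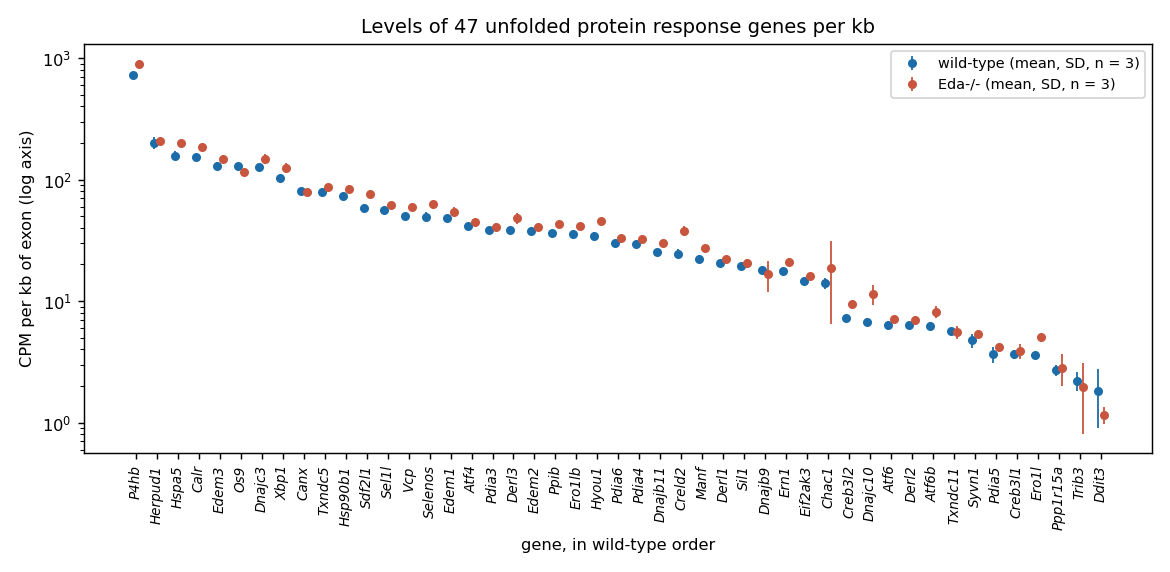
Wild-type and Eda-/- levels of the 47 tested genes as TMM-scaled CPM per kb of exon on a log axis, ordered by wild-type level, with points for group means and bars for SD (n = 3). P4hb stands at 728 CPM per kb in wild-type, and Ddit3 is lowest at 1.82.

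The sum of the 48 genes shows how much the scaling matters. Summed TMM-scaled values were 10200 ± 370 CPM in wild-type and 11824 ± 186 CPM in Eda-/- glands (SD, n = 3 each). As a share of all counts without scaling they were 1.12% ± 0.0385 and 1.07% ± 0.0277. Chaperones had 3137 ± 127 and 3711 ± 124 CPM with TMM, while their shares of all counts, 0.345% ± 0.0168 and 0.336% ± 0.00178, overlapped between groups. Degradation genes had 3097 ± 158 and 3380 ± 65.2 CPM with TMM, and their share was lower in every mutant library, 0.340% ± 0.0140 against 0.306% ± 0.00791. Such shares also depend on how much of a library other genes take up. The mucin-like gene Mucl2 took up 607653 of 14895607 (wild-type 1), 682606 of 15700899 (wild-type 2) and 582816 of 13670343 (wild-type 3). Its part was larger in the mutants, at 1546495 of 12247077 (mutant 1), 917502 of 11894395 (mutant 2) and 1334412 of 14480331 (mutant 3). How far Mucl2 lowered the mutant shares was not tested. The reason for the scaling factors, 1.08 to 1.14 in wild-type and 0.887 to 0.937 in mutant glands, was not tested either.

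**Figure D5:**
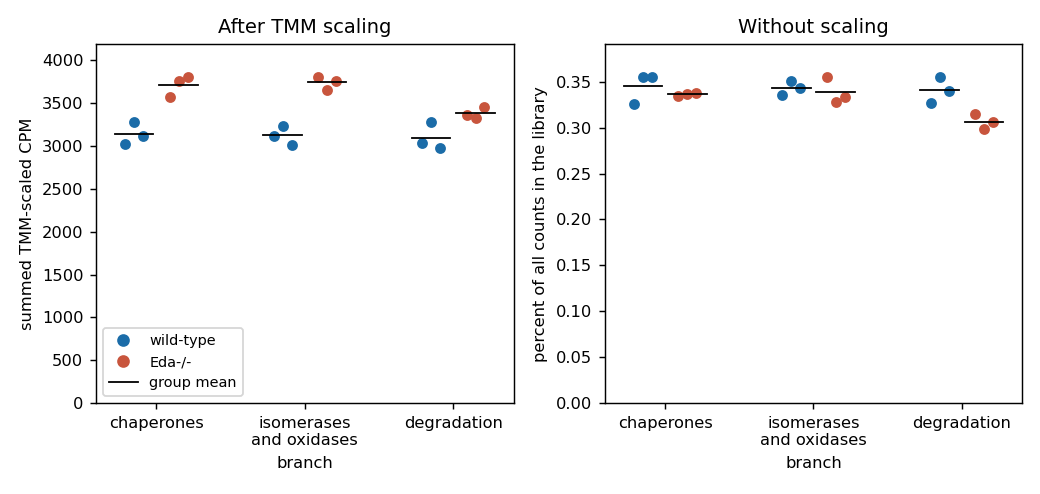
Summed levels of 3 branches in each library, as TMM-scaled CPM (left) and as a percent of all counts (right), with points for libraries and lines for group means. The mutant sums are above the wild-type sums on the left, while on the right the degradation sum is lower in the mutants, 0.306% against 0.340%.

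Other genes of the same pathways were read from lists chosen by role, with the same test. Of 38 tested ER folding genes outside the 48, 3 rose (Fkbp11, Cnpy3 and Selenof) and 3 fell (Txndc16, Ppic and Rcn1), with a median log2 difference of -0.05; 6.21% and 6.9% of all tested genes were called higher and lower. Selenof was at -0.05 with library totals. Fkbp11, a prolyl isomerase of secretory cells, rose from 27.7, 33.2 and 32.0 CPM to 51.0, 49.6 and 45.5 CPM (0.65 ± 0.09, edgeR adjusted p = 0.000152). Ppic, cyclophilin C, was low throughout, at 0.941 to 1.86 CPM against 0.187 to 0.702 CPM (-1.46 ± 0.42, edgeR adjusted p = 0.0329). Of these 6 genes Fkbp11 passed whichever library was left out, and the other 5 did not. Selenof, Rcn1 and the degradation gene Ufd1 were named after their values were seen.

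Of 37 other degradation genes 4 rose and 1 fell (Ufd1, a partner of Vcp), beside the same 6.21% and 6.9% of all tested genes, with a median of 0.17. Hm13, the signal peptide peptidase, was at 195, 192 and 184 CPM in wild-type glands and 284, 257 and 266 CPM in mutant glands, clearly apart (0.50 ± 0.07, edgeR adjusted p = 0.000301). Tmub2 (0.42), Ubl4a (0.32) and Ubxn4 (0.23) also rose, Ubxn4 being at -0.04 with library totals. None of these 3, nor Ufd1, passed in every fit that left a library out, whereas Hm13 did.

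Of 28 other integrated stress response genes 2 rose (the tRNA synthetase Wars, 0.52, edgeR adjusted p = 0.00316, and the secreted glycoprotein Stc2), 0 fell, and the median was 0.04; 6.21% of all tested genes were called higher. Stc2 rose from 1.87, 3.12 and 3.40 CPM to 9.69, 4.87 and 7.88 CPM (1.42 ± 0.27, edgeR adjusted p = 0.00767). Of 18 tested regulators of the sensors 2 rose, Ddrgk1 (0.32) and Cdk5rap3 (0.23), both components of the UFMylation ligase that modifies ER ribosomes, again beside 6.21% of all tested genes. Neither passed in every fit that left a library out, and Cdk5rap3 was at -0.05 with library totals.

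Cell type markers moved between the groups as well. The counts that rose or fell in each list stand beside 6.21% of all tested genes called higher and 6.9% called lower. The summed level of 10 acinar markers was 50399 to 54392 CPM in wild-type and 101685 to 153762 CPM in mutant glands, and 12510 to 14687 and 15699 to 18737 CPM without the mucin-like gene Mucl2; 3 of the 10 rose and 1 fell. Mucl2 (1.49, edgeR adjusted p = 0.000195) and Pip (0.39, edgeR adjusted p = 0.00734) rose. The third was Bhlha15 (MIST1), a transcription factor of secretory cells (0.36, edgeR adjusted p = 0.00694). Dmbt1 fell (-0.51, edgeR adjusted p = 0.000672). Summed macrophage markers were 88.9 to 176 CPM in wild-type and 41.3 to 50.8 CPM in mutant glands, with 6 of 10 lower, and fibroblast markers 221 to 288 and 177 to 206 CPM, with 3 of 9 lower. Myoepithelial markers (4 of 8 tested lower) were 134 to 173 and 99.6 to 116 CPM, and ductal markers (2 of 7 lower) 480 to 525 and 433 to 487 CPM. Krt8 and Krt18, at means of 176 and 193 CPM in wild-type glands, made up most of the ductal sum, and neither passed. The sum thus mainly follows these 2 keratins, and the ductal markers Krt19 and Cftr had too few counts to be tested. Endothelial markers (2 of 7 lower, 1 higher) were 50.4 to 66.4 and 43.8 to 47.3 CPM. Adipocyte markers were 1.18 to 1.75 CPM against 3.74 to 4.78 CPM, and Fabp4, the one of the 6 that was tested, rose (1.98, edgeR adjusted p = 0.000694, passing whichever library was left out). Fabp4 made up most of the mutant sum, with means of 0.729 CPM in wild-type and 2.89 CPM in mutant glands. The untested markers had too few counts: Adipoq, Plin1 and Retn had higher mutant means, Cidec was level and Lep was lower. Skeletal muscle markers were 0.823 to 2.18 and 0.546 to 1.05 CPM, with none tested. Plasma cell markers, from the other secretory cell rich in ER, were 60.9 to 160 and 150 to 347 CPM, with only wild-type 2 reaching into the mutant range, and 0 of 7 tested passed with edgeR. The kappa light chain Igkc was at 5.74, 12.5 and 6.03 CPM against 62.3, 23.1 and 42.5 CPM, groups that did not overlap (2.39 ± 0.55, edgeR adjusted p = 0.071). It was called higher by DESeq2 (adjusted p = 0.000444) and by edgeR with library totals (adjusted p = 0.0494). Of the 7 tested plasma cell markers, 4 lay above 0 and 3 below. Ighm (-0.66, edgeR adjusted p = 0.151) and Sdc1 (-0.21, edgeR adjusted p = 0.174) were lower in every mutant library. With library totals both passed as lower (edgeR adjusted p = 0.025 and 0.00417), beside 33.1% of all tested genes. Pancreatic acinar markers were at most 0.281 CPM in summed level, with Ctrb1 at 0. The part of these cell types in the differences above was not tested.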

How the data were processed

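Total RNA of 6 whole-gland samples, 3 per genotype, was measured as reads per gene. Per the labels' protocols, TRIzol extraction was followed by column purification, removal of ribosomal RNA and a directional library kit. The authors deposited raw, whole-number counts per gene in 1 table. Per the submitters' processing notes, the tools included STAR, featureCounts and DESeq2 and the build was GRCm38.p5. Not given in the sources used here were versions, the annotation release, the strand setting and the treatment of multiply mapping reads, so overlapping genes and near-identical copies are uncertain. Hsp90b1, Ero1lb, Dnajb9 and Txndc5 share 12.3%, 11.6%, 10.8% and 10.1% of their 31-base words with other genes.

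Groups came from the genotype label, and columns were matched to samples by name. Symbols and coordinates came from GENCODE M21 (GRCm38): 50462 of 50686 identifiers matched, and symbols absent from M21 were resolved by exact RefSeq synonyms. Counts were tested in edgeR 4.0.16 (R 4.3.3) with filterByExpr (minimum count 10), TMM, genotype alone in the model, robust quasi-likelihood fits, two-sided tests and Benjamini-Hochberg adjustment over the 13178 tested genes at a threshold of 0.05. Standard errors are the absolute log2 difference divided by the square root of F. The tested genes held at least 99.7% of each library's counts, and the common biological coefficient of variation was 0.103. The fits were tested on simulated counts. No pair of replicates agreed within sampling noise by a chi-square of counts.

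The genes, the branches and the other lists were chosen with earlier results of these data known. All 48 genes are described, and up to 4 passing genes by p are named from each other pathway list by rule. Selenof, Rcn1 and Ufd1 were added after their values were seen. So were Igkc and every other named marker except Mucl2, Dmbt1, Fabp4 and Ctrb1. Alternatives were DESeq2 1.42.0, limma-voom (limma 3.58.1), DESeq2 size factors, library totals, upper quartile scaling, no filter, minimum count 50, removal of the 20 most abundant genes, a replicate block, removal of a GC and length trend (known for 99.8% of tested genes), and each library left out.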

Additional observations from a re-analysis of the deposited data

How the results depend on the processing

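Under library totals, 27 of the 41 genes above 0 with TMM lay below 0, of which 5 had passed. The log2 differences of Ern1 (-0.0273), Xbp1 (-0.0044), Dnajb11 (-0.0259), Ppib (-0.0403), Vcp (-0.0331), Ubxn4 (-0.044) and Cdk5rap3 (-0.0513) turned below 0, as did Selenof (-0.05) and, past the threshold, Herpud1 (-0.2278). Removing the GC and length trend turned the sign of 2 genes that had not passed (Canx and Txndc11), and leaving out 1 library turned that of 7 (Trib3, Chac1, Ppp1r15a, Canx, Dnajb9, Txndc11 and Herpud1). Under library totals 246 of all genes were higher and 4365 lower. Of the 47 genes 2 rose and 4 fell: 0 sensors, 0 stress factors, 0 chaperones, 2 isomerases and 0 degradation genes rose, and 1 chaperone, 1 isomerase and 2 degradation genes fell. With the GC and length trend removed 1444 genes and 6 degradation genes were higher, and with the trend removed together with a replicate block 1424 and 6. DESeq2 called 593 genes lower. Of the stress factors and targets 0 rose with upper quartile scaling or with minimum count 50. The cause of these shifts was not tested. Leaving out 1 library at a time gave 561 to 677 genes higher and 599 to 834 lower, and 7 to 15 of the 47 genes higher. By branch it gave 1 to 2 sensors, 0 to 1 stress factors, 2 to 7 chaperones, 3 to 4 isomerases and 1 to 3 degradation genes higher, with 0 lower in each.

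Replicate numbers in the titles did not pair the libraries: the correlations of same-numbered deviations were -0.04, 0.02 and -0.09, and not every library correlated best with its own number. With the replicate block 15 of the 47 genes rose, 712 genes were higher and 896 lower, and Ern1, Ppib and Vcp did not pass. With 3 libraries per group the precision is limited, and low counts limit Ddit3, Trib3 and Ern2 most.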
